A study of Homo sapiens with 16 samples.

Results

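Semaphorins, the plexins that receive them and the neuropilins that assist the plexins were followed through the differentiation of human embryonic stem cells to definitive endoderm, with and without the transcription factor GATA6. The set held 20 semaphorins, 9 plexins and 2 neuropilins, chosen by gene symbol from the annotation of the arrays, and made up 31 of the 18132 genes measured. All 31 were read by at least 1 probe set that names a single gene, and by 101 such probe sets in all, from 1 to 9 for each gene. Where several probe sets read a gene, the one with the highest average level stands for it.

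Cells of the H1 line, an established human embryonic stem cell line, were measured in 8 groups of 2 Affymetrix PrimeView arrays. Control cells carried a lentiviral vector without insert and were taken undifferentiated at day 0 and at days 3, 4 and 5 of differentiation, with activin A, BMP4 and FGF2 for 2 days and activin A alone from then on. Depleted cells carried a lentiviral short hairpin RNA against GATA6 and were taken at days 3, 4 and 5. Rescue cells carried the hairpin and a human GATA6 cDNA, inducible by doxycycline and not recognised by the hairpin, and were taken at day 5 after 96 hours with 60 ng/mL doxycycline a day. Per the study's methods the lines were polyclonal, the rescue line was made from the depleted one, and replicates were independent differentiations. The labels name doxycycline for the rescue arrays alone, and no depleted arrays of day 0 or rescue arrays without doxycycline were analysed here. Doxycycline, the making of the rescue line and the return of GATA6 therefore cannot be told apart.

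Levels are log2 values after robust multi-array averaging (RMA), so that a difference of 1 is 2-fold, and they were compared only within a probe set. GATA6 read 1.72 and 1.86 at day 0 and between 11.44 and 11.60 on the 6 later control arrays. On depleted arrays it read 9.76 and 9.90 at day 3, 7.92 and 6.62 at day 4 and 6.37 and 6.62 at day 5, and on the rescue arrays 8.43 and 8.31. Whether its probe set also reads the introduced cDNA is not given in the sources used here. The paper reports overexpression of GATA6 mRNA in the rescue line with doxycycline. The array reading of rescue cells is therefore not taken as their total GATA6. Summed over 7 endoderm markers, levels were 26.0 to 27.1 at day 0, 62.8 to 71.1 in control cells of days 3 to 5, 59.8 to 60.1 in depleted cells of day 3, 38.7 to 43.5 at days 4 and 5, and 64.4 to 64.7 in rescue cells. In bulk RNA, fewer cells of a type and less RNA per cell cannot be told apart. Of 5 endothelial markers, VWF was called between depleted and control cells at day 4, and VWF and TEK at day 5. The summed level was 25.3 to 26.7 in control cells of days 3 to 5 and 19.9 to 20.5 in depleted cells of days 4 and 5. The 5 mesenchymal markers summed to 23.6 to 28.8 and 29.2 to 30.6 in the same groups. The 5 pluripotency markers summed to 53.1 to 53.4 at day 0, 44.9 to 46.7 in control cells of days 3 to 5, 50.6 to 51.5 in depleted cells of days 4 and 5 and 36.5 to 36.7 in rescue cells. The 5 streak and mesoderm markers summed to 29.3 to 35.1 in control and 31.9 to 38.8 in depleted cells of days 4 and 5, the 5 neural ones to 20.2 to 21.8 and 16.9 to 18.0, and the 5 of trophoblast and amnion to 17.3 to 18.1 and 16.8 to 17.5. Some sums hide opposite changes between depleted and control cells of the same day. At both days 4 and 5, TWIST1 and POSTN were called higher and LUM lower, and TBXT higher and MIXL1 lower. MESP1 was also higher at day 4 and PDGFRA lower at day 5. Of the neural markers PAX6 alone was called, lower on both days. GATA3 was lower on both days and KRT7 higher at day 5. At day 3, HHEX, TEK, NANOG, DPPA4 and LUM were called lower in depleted cells and TWIST1 higher, and no other marker was called. The part of these cell types in the results was not tested. Replicates differed by an SD of 0.163 to 0.245 log2 over all genes, and the rescue arrays by 0.105.

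Semaphorins carry a conserved sema domain. Class 3 members are secreted, classes 4 to 6 span the membrane and class 7 is held by a lipid anchor. Binding to a plexin switches on the GTPase-activating domain inside the receptor and reorganises the cytoskeleton, which turns axons, blood vessels and migrating cells towards or away from the source. Most class 3 semaphorins need NRP1 or NRP2 to reach a class A plexin, while SEMA3E binds PLXND1 directly. Neuropilins also serve as co-receptors for vascular endothelial growth factor.

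Many members rose as control cells left pluripotency. From day 0 to day 5, 11 of 31 rose and 5 fell in limma at an adjusted p under 0.05, while 15.9% of all genes rose and 18.1% fell. The risers were the ligands SEMA3E, SEMA6D, SEMA5A, SEMA3D and SEMA5B, the class A plexins PLXNA2, PLXNA1, PLXNA4 and PLXNA3, and both neuropilins. The rises spanned 6.88 ± 0.34 for SEMA3E and 0.85 ± 0.13 for PLXNA3. SEMA6A (−1.41 ± 0.16), PLXNB1 (−0.86 ± 0.17), SEMA4D (−0.84 ± 0.16), SEMA4B (−0.77 ± 0.16) and PLXND1 (−0.61 ± 0.22) fell. With the mean of all probe sets the calls of SEMA4D (−0.28, adjusted p = 0.0602) and PLXND1 (−0.43, adjusted p = 0.0522) were lost. The median over members was 0.08 and the median size 0.61, against −0.04 and 0.26 over all genes. Calls were lost for PLXND1 without control day 0 replicate 2, either control day 5 array, either depleted day 3 array, either depleted day 4 array, either depleted day 5 array or either rescue day 5 array (−0.64 to −0.38, adjusted p 0.0554 to 0.314) and for PLXNA4 without control day 0 replicate 2 or control day 5 replicate 1 (1.00 to 1.13, adjusted p 0.12 to 0.161).

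More members were called before day 3 than after it. Between days 0 and 3, 11 members rose (13.2% of all genes) and 6 fell (14.6%), and between days 3 and 5, 6 rose (6.11%) and 3 fell (5.45%). SEMA6D, PLXNA2, SEMA5A, NRP1 and NRP2 were near their highest control level by day 3, with rises of 6.83 ± 0.36, 6.38 ± 0.30, 4.12 ± 0.20, 4.55 ± 0.32 and 3.81 ± 0.27 by then. With the mean of all probe sets these rises were smaller, 3.15, 5.34, 3.44, 1.28 and 1.71, and all still called. SEMA3E rose in both steps, by 4.78 ± 0.34 and 2.10 ± 0.34. SEMA3A, the classical growth cone repellent, fell by day 3 (−1.62 ± 0.16) and rose again by day 5 (1.38 ± 0.16), as did SEMA4D (−1.46 ± 0.16 and 0.62 ± 0.16) and SEMA3C (−1.55 ± 0.29 and 1.01 ± 0.29). With the mean of all probe sets SEMA4D fell by less (−0.32, still called) and its later rise was lost (0.05, adjusted p = 0.852). SEMA3C had −0.51 and 0.40 with that mean, both called. Both comparisons use the day 3 arrays. Without control day 3 replicate 1, control day 5 replicate 1 or control day 5 replicate 2, 5, 5 and 4 members were called between days 3 and 5. The rise of SEMA3D by day 3 (1.41 ± 0.48, adjusted p = 0.045) was lost without either control day 0 array, control day 3 replicate 2, either control day 5 array, either depleted day 3 array, either depleted day 4 array, either depleted day 5 array or either rescue day 5 array (0.42 to 1.64, adjusted p 0.0525 to 0.476), and was 2.41 without control day 3 replicate 1. That of SEMA3C after day 3 was lost without either control day 3 array, either control day 4 array, either control day 5 array or either rescue day 5 array (0.97 to 1.04, adjusted p 0.0539 to 0.145). The later rise of SEMA4D was lost without control day 3 replicate 1 or control day 5 replicate 2 (0.38 to 0.46, adjusted p 0.193 to 0.227).

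**Figure D1:**
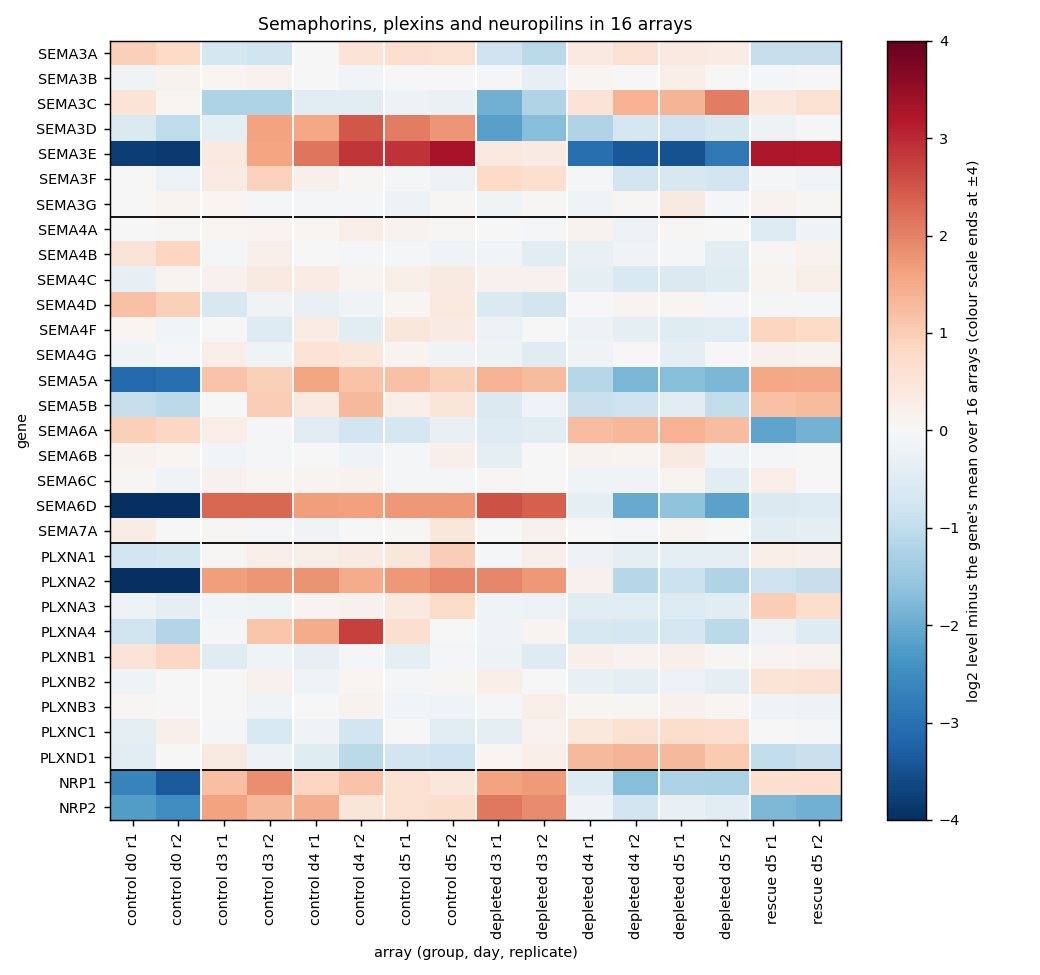
Level of the 31 members (rows, in the order class 3 semaphorins, membrane-bound semaphorins, plexins and neuropilins) in each of the 16 arrays (columns), as log2 level minus the mean of the gene over all arrays, with colours ending at 4 below and above. SEMA3E, SEMA5A, SEMA6D, PLXNA2, NRP1 and NRP2 are low at day 0, high in control and depleted cells at day 3, and lower in depleted cells at days 4 and 5.

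In depleted cells, 1 member was called different from control cells at day 3 and 17 of 31 at day 4. At day 3 GATA6 itself was lower (−1.69 ± 0.29, adjusted p = 0.00566), a call lost without control day 3 replicate 2 or depleted day 3 replicate 1 (−1.60 and −1.62, adjusted p = 0.0501 and 0.055). Of the members, 0 were higher (1.79% of all genes) and 1 was lower, SEMA3D (1.96%). Leaving out the adjustment, 6 members had p under 0.05, but the share of all genes at that threshold is not given here. Without control day 3 replicate 1, 3 members were called at day 3, SEMA3D, SEMA3E (−1.23, adjusted p = 0.0421) and SEMA5B (−1.33, adjusted p = 0.0375), and without control day 3 replicate 2 or depleted day 3 replicate 1, 0. Without either control array of day 5, which enter through the shared variance, 2 were called, the second being SEMA6A (−0.59, adjusted p = 0.0466). At day 4, 4 members were higher (14.8% of all genes) and 13 lower (13.3%), and at day 5 again 4 were higher (16.5%) and 13 lower (16%). The 2 days used separate arrays, but the labels do not say whether these came from separate differentiations. SEMA3D, SEMA3E, SEMA4C, SEMA5A, SEMA5B, SEMA6D, PLXNA1 to PLXNA4, NRP1 and NRP2, 12 members, were lower on both days, and SEMA3C, SEMA6A, PLXNC1 and PLXND1 were higher on both. Averaged over all its probe sets, a member had a smaller difference in several cases, still called, at days 4 and 5 respectively −1.48 and −1.11 for SEMA3D, −1.55 and −2.07 for SEMA6D, −0.75 and −0.62 for NRP1, 0.60 and 0.95 for SEMA3C and 0.48 and 0.48 for PLXNC1, and −1.29 for PLXNA4 at day 4. With that average the calls of NRP2 were lost at day 4 (−0.40, adjusted p = 0.0901) and day 5 (−0.17, adjusted p = 0.474). Also lost were PLXNA1 at day 4 (−0.36, adjusted p = 0.0522), and PLXNA4 (−0.455, adjusted p = 0.143) and SEMA4F (−0.24, adjusted p = 0.121) at day 5. Medians over members were −0.08, −0.29 and −0.29 at days 3, 4 and 5, against −0.01, −0.01 and 0.04 over all genes. Receptors had medians of −0.58 and −1.02 at days 4 and 5 and ligands −0.22 and −0.22.

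Each of the 11 members that rose from day 0 to day 5 in control cells was lower in depleted cells at day 4, a comparison made on other arrays. They were 84.6% of the 13 members lower at day 4. Over all genes, 58.3% of the 2881 that rose were lower at day 4, and they made up 69.5% of the genes lower then. Of the 5 members that fell, SEMA6A and PLXND1 were higher at day 4, which is 40.0% of the 5 and 50.0% of the members higher at day 4. Over all genes these shares were 52.9% and 64.5%.

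**Figure D2:**
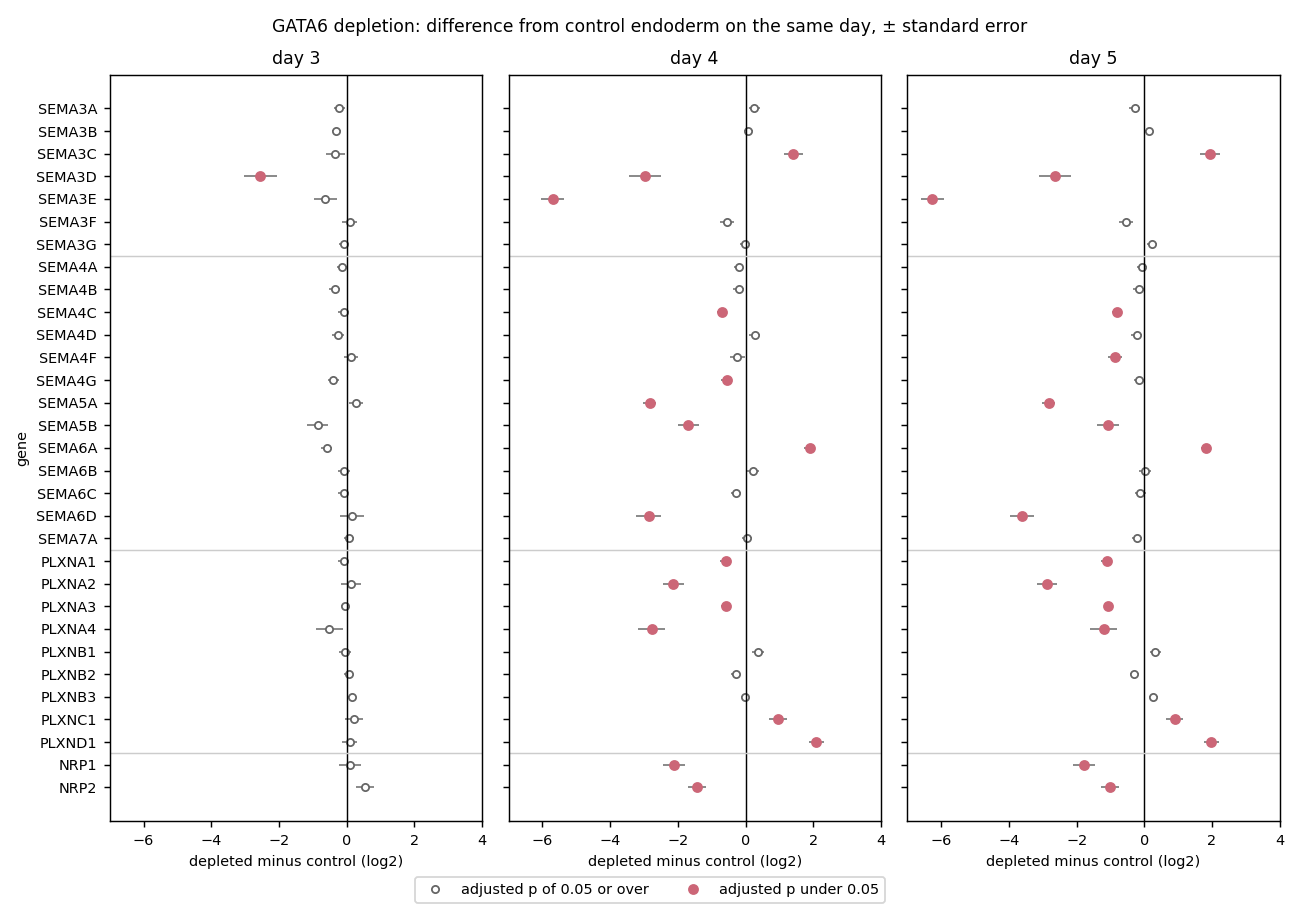
Difference of depleted from control cells (horizontal axis, log2, ± standard error of the fit) for each member (rows) at days 3, 4 and 5, with filled points for an adjusted p under 0.05. SEMA3D alone is filled at day 3, and SEMA3E lies furthest to the left at days 4 and 5.

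SEMA3E, the ligand of PLXND1 that repels growing vessels and axons, had the largest difference of any member. On control arrays it read 3.03 and 2.96 at day 0, close to the lower quartile of an array (2.94 to 3.06), and 7.18 and 8.37, 8.91 and 9.65 and 9.68 and 10.08 at days 3, 4 and 5. On depleted arrays it read 7.18 and 7.10 at day 3, 3.77 and 3.40 at day 4 and 3.30 and 3.92 at day 5, and on the rescue arrays 10.02 and 9.99. At day 3 the depleted arrays lay beside the lower control array, and from day 4 on far below all control arrays of their day. The differences were −0.63 ± 0.34, adjusted p = 0.377 at day 3, −5.70 ± 0.34, adjusted p = 1.94e-07 at day 4 and −6.26 ± 0.34, adjusted p = 7.79e-08 at day 5. Near the lower quartile background limits the size of a difference, so that such differences are given on the log2 scale only, and no fold is given.

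SEMA3D, a secreted relative that steers axons in zebrafish and takes part in heart development in the mouse, was the member already lower at day 3. Control arrays read 3.61 and 3.16 at day 0, 3.80 and 5.80 at day 3, 5.75 and 6.67 at day 4 and 6.25 and 5.95 at day 5. Depleted arrays read 2.03 and 2.48, 2.97 and 3.51 and 3.36 and 3.56 at days 3, 4 and 5, and rescue arrays 3.98 and 4.10. The depleted arrays of day 3 lay below the quartile and below every control array, day 0 included, but the control arrays of that day differed by 2.00 from each other, more than for any other member. The differences were −2.55 ± 0.48, adjusted p = 0.0116 at day 3, −2.97 ± 0.48, adjusted p = 0.000474 at day 4 and −2.64 ± 0.48, adjusted p = 0.000973 at day 5. The day 3 result missed the threshold without control day 3 replicate 2 or depleted day 3 replicate 1 (−2.33 to −1.55, adjusted p 0.0506 to 0.101), and of the 3 probe sets of SEMA3D, all with a negative difference, 1 was called.

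SEMA3C moved the other way. This ligand, needed in the mouse to divide the outflow tract of the heart, read 4.32 and 3.85 at day 0, 2.54 and 2.53 at day 3, 3.31 and 3.33 at day 4 and 3.58 and 3.50 at day 5 in control cells. The control arrays of day 3 lay below the quartile, so that the fall to that day and the rise after it are measured from near background. Depleted cells read 1.85 and 2.56 at day 3, also below the quartile, 4.33 and 5.15 at day 4 and 5.14 and 5.83 at day 5, and rescue cells 4.20 and 4.38. It was higher in depleted cells at day 4 (1.42 ± 0.29, adjusted p = 0.00246) and day 5 (1.94 ± 0.29, adjusted p = 0.000212), where all depleted arrays also lay above those of day 0, by as little as 4.33 beside 4.32. The difference at day 3 was −0.33 ± 0.29, adjusted p = 0.636.

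SEMA3C, SEMA3E, SEMA3A and SEMA3D follow each other on chromosome 7 in the RefSeq gene order of GRCh38.p14, with 3 protein-coding genes between SEMA3C and SEMA3E and 0 between the others. Of these neighbours at days 4 and 5, SEMA3C was higher in depleted cells, SEMA3E and SEMA3D were lower, and SEMA3A had differences of 0.25 ± 0.16 (adjusted p = 0.298) and −0.29 ± 0.16 (adjusted p = 0.204). PCLO, between SEMA3C and SEMA3E, was higher in depleted cells by 1.52 ± 0.14 and 1.88 ± 0.14, while HGF and CACNA2D1 beside it were called in no comparison.

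GATA factors bind the letters GATA preceded by A or T and followed by A or G, so the 250 bases before each RefSeq start were searched on both strands. Promoters were found for 27 of 31 members (not NRP1, SEMA6B, SEMA6A or SEMA3A), 48 in all, and 8 of these (16.7%) held the letters, against 22.3% of 35116 promoters of all genes. The 8 belonged to SEMA3C, SEMA3D, SEMA3E with 2, SEMA5B, PLXNC1, SEMA4A and SEMA4D. Among members with a promoter, 11 were lower in depleted than control cells at days 4 and 5, and 3 of these had a match. Of 3 that were higher, 2 did. A member counts here if any of its promoters matched, so the share of 22.3%, taken by promoter, is no background for these counts. Of the 8, 5 are printed, those of SEMA3E, SEMA3D and SEMA5B, lower in depleted cells, and of SEMA3C, higher there. Each runs 5′ to 3′ on the minus strand of GRCh38.p14 and ends at the base before the start, with the GATA letters of either strand in capitals.
SEMA3E chr7:83649140-83649389: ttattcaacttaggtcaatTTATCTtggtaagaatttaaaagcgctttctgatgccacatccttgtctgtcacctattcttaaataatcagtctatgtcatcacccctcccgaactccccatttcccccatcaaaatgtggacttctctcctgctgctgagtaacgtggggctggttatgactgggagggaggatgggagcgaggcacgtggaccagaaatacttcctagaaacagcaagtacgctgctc
SEMA3E chr7:83641432-83641681: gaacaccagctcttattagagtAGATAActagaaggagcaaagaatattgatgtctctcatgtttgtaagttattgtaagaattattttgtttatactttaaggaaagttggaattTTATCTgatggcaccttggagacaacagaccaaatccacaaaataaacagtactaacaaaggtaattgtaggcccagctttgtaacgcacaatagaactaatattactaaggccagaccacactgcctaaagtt
SEMA3D chr7:85187057-85187306: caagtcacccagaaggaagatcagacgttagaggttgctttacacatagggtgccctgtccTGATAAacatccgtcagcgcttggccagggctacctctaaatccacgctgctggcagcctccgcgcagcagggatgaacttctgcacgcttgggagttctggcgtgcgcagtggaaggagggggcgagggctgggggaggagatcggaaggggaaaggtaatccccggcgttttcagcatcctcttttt
SEMA5B chr3:123028606-123028855: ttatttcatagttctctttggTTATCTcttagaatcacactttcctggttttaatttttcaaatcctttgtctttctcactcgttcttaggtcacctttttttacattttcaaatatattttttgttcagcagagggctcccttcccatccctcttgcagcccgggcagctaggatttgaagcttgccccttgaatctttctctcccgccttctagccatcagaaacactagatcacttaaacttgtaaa
SEMA3C chr7:80922390-80922639: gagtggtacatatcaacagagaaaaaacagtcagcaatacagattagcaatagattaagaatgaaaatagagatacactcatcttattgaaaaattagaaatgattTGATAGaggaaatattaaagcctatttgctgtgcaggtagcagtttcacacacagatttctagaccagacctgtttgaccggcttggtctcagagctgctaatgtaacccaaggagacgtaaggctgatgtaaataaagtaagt
Each holds 1 match, or 2 in the downstream promoter of SEMA3E. A match describes the letters in this window and no more, and the share in members was not above that of all promoters. The median GC content was 64.8% in member promoters and 58.0% in all, and the shares were not adjusted for it. SEMA3C and SEMA5B also have promoters without a match. Per the paper, most GATA6 binding was intergenic or intronic and little of it at proximal promoters.

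The other class 3 ligands were not called in a depletion comparison. SEMA3F, which binds NRP2, had differences of −0.55 ± 0.22 (adjusted p = 0.0863) at day 4 and −0.54 ± 0.22 (adjusted p = 0.0776) at day 5. With only the groups compared in the fit SEMA3F was called at day 5 (adjusted p = 0.0266), as in some fits with an array left out. With the mean of its probe sets SEMA3A was called lower at day 5 (−0.46, adjusted p = 0.0457). SEMA3B and SEMA3G were called in none of the 12 comparisons, and their group means spanned 0.33 and 0.22.

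SEMA6D, a transmembrane ligand of PLXNA1 known from heart development in the chick, rose within 3 days from near the lower quartile. It read 2.67 and 2.93 at day 0 and 9.63 and 9.64, 8.99 and 8.98 and 9.07 and 9.08 at days 3, 4 and 5 in control cells. In depleted cells it read 9.86 and 9.73 at day 3, 6.94 and 5.31 at day 4 and 5.72 and 5.19 at day 5, and in rescue cells 6.74 and 6.80. Depleted cells reached the control level at day 3 and then fell below it on every array, though not back to day 0. The differences were 0.16 ± 0.36, adjusted p = 0.888 at day 3, −2.86 ± 0.36, adjusted p = 6.16e-05 at day 4 and −3.62 ± 0.36, adjusted p = 7.88e-06 at day 5. The arrays of depleted day 4 were 1.63 apart, more than for any other member of that group.

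SEMA5A and SEMA5B, transmembrane ligands with thrombospondin repeats, were both lower in depleted cells. SEMA5A read 4.39 and 4.49 at day 0 and 8.67 and 8.46, 9.08 and 8.65 and 8.69 and 8.46 at days 3, 4 and 5 in control cells, and 8.90 and 8.78, 6.36 and 5.70 and 5.82 and 5.67 in depleted cells. Rescue cells read 9.07 and 9.03, so that depleted cells of days 4 and 5 stood apart from all other differentiated cells. Its 5 probe sets were all called lower at both days, and the representative differed by −2.83 ± 0.20, adjusted p = 5.71e-07 at day 4 and −2.83 ± 0.20, adjusted p = 4.45e-07 at day 5. SEMA5B read 4.52 and 4.38, 5.47 and 6.42, 5.83 and 6.73 and 5.71 and 5.92 at days 0, 3, 4 and 5 in control cells, 4.89 and 5.30, 4.57 and 4.62 and 5.03 and 4.45 at days 3 to 5 in depleted cells, and 6.62 and 6.70 in rescue cells. Its depleted arrays were lower at day 4 (−1.69 ± 0.32, adjusted p = 0.0013) and day 5 (−1.08 ± 0.32, adjusted p = 0.0189), with −0.86 ± 0.32, adjusted p = 0.172 at day 3. The day 5 call was lost without control day 5 replicate 2 or depleted day 5 replicate 2 (−0.97 to −0.78, adjusted p 0.101 to 0.158).

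SEMA6A, a ligand of PLXNA2 and PLXNA4, was higher in depleted cells. It read 10.31 and 10.20 in undifferentiated cells and then 9.62 and 9.32, 8.92 and 8.59 and 8.65 and 9.05 in control cells. Depleted cells read 8.85 and 8.91 at day 3, 10.60 and 10.70 at day 4 and 10.75 and 10.59 at day 5. At day 3 they lay below control without passing the test (−0.59 ± 0.16, adjusted p = 0.0666), and at days 4 and 5 all 4 arrays lay above control and above day 0. The differences from control were 1.90 ± 0.16, adjusted p = 3.2e-06 at day 4 and 1.82 ± 0.16, adjusted p = 3.19e-06 at day 5. All 4 probe sets were called higher on both days. In rescue cells SEMA6A read 7.25 and 7.48, the lowest of all groups.

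Of the remaining membrane-bound ligands, SEMA4C, which binds PLXNB2, was lower at day 4 (−0.69 ± 0.15, adjusted p = 0.00374) and day 5 (−0.82 ± 0.15, adjusted p = 0.00102). SEMA4G was called at day 4 (−0.56 ± 0.17, adjusted p = 0.0246) and SEMA4F at day 5 (−0.88 ± 0.21, adjusted p = 0.00612). The SEMA4C call at day 4 was lost without depleted day 4 replicate 2 (−0.56, adjusted p = 0.0521), and that of SEMA4G without either control day 4 array or either depleted day 4 array (−0.63 to −0.48, adjusted p 0.0592 to 0.141). The SEMA4F call was lost with the mean of its probe sets. SEMA4A, SEMA4B, SEMA4D, SEMA6B, SEMA6C and SEMA7A were called in no depletion comparison.

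Plexins of class A, the signalling partners of neuropilins, were lower together in depleted cells, while PLXNC1 and PLXND1 were higher and the 3 class B plexins were not called. PLXNA2 read 3.72 and 3.52 at day 0 and 9.95 and 10.04, 10.06 and 9.77 and 10.02 and 10.22 at days 3, 4 and 5 in control cells. In depleted cells it read 10.22 and 10.02, 8.44 and 7.13 and 7.40 and 7.06, and in rescue cells 7.44 and 7.34. Depleted and control arrays overlapped at day 3, and later depleted arrays lay all below their controls and above day 0. The differences were 0.12 ± 0.30, adjusted p = 0.897 at day 3, −2.13 ± 0.30, adjusted p = 0.000147 at day 4 and −2.89 ± 0.30, adjusted p = 1.08e-05 at day 5. Both probe sets were called at both days.

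PLXNA4, a receptor of SEMA6A and, with a neuropilin, of SEMA3A, read highest at day 4 in control cells. Control cells of day 4 were not tested against those of day 3 or day 5. It read 2.64 and 2.29, 3.36 and 4.56, 4.92 and 6.18 and 4.09 and 3.46 at days 0, 3, 4 and 5 in control cells, with its peak at day 4, where the arrays were 1.26 apart. Depleted cells read 3.32 and 3.56, 2.81 and 2.75 and 2.78 and 2.36, and rescue cells 3.20 and 2.95. No depleted array showed the peak, and those of days 4 and 5 lay below the quartile. The differences were −2.77 ± 0.40, adjusted p = 0.000187 at day 4 and −1.21 ± 0.40, adjusted p = 0.0348 at day 5, and the latter was lost without control day 5 replicate 1 or either depleted day 5 array (−1.42 to −0.89). The day 5 call was also lost with the mean of its probe sets (−0.455, adjusted p = 0.143).

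PLXNA1, which receives SEMA6D, and PLXNA3 had smaller differences. PLXNA1 read 7.27 and 7.32, 8.07 and 8.28, 8.24 and 8.35 and 8.49 and 9.00 in control cells, 7.96 and 8.21, 7.77 and 7.65 and 7.62 and 7.63 in depleted cells, and 8.30 and 8.23 in rescue cells. PLXNA3 read 6.64 and 6.47, 6.72 and 6.65, 6.95 and 6.99 and 7.22 and 7.57 in control cells, 6.66 and 6.61, 6.40 and 6.38 and 6.29 and 6.36 in depleted cells, and 7.81 and 7.54 in rescue cells. Control arrays were highest at day 5 for both, and depleted arrays of days 4 and 5 lay below those of day 3. PLXNA1 differed by −0.59 ± 0.16, adjusted p = 0.0123 at day 4 and −1.12 ± 0.16, adjusted p = 0.000117 at day 5, and PLXNA3 by −0.58 ± 0.13, adjusted p = 0.00493 and −1.07 ± 0.13, adjusted p = 4.58e-05. With the mean of its probe sets PLXNA1 was not called at day 4 (−0.36, adjusted p = 0.0522). The day 4 call of PLXNA1 was lost without control day 4 replicate 2 or depleted day 4 replicate 2 (−0.53 to −0.52, adjusted p 0.0767 to 0.0913).

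PLXND1, the receptor of SEMA3E, was higher in depleted cells, in which its ligand was lower. It read 6.64 and 7.10, 7.41 and 6.86, 6.60 and 6.00 and 6.29 and 6.23 in control cells, 7.14 and 7.32, 8.35 and 8.43 and 8.37 and 8.11 in depleted cells, and 6.07 and 6.18 in rescue cells. Depleted arrays of days 4 and 5 lay above all others, and the differences were 2.09 ± 0.22, adjusted p = 1.47e-05 and 1.98 ± 0.22, adjusted p = 1.78e-05. PLXND1 is best known from endothelium. Of the 5 endothelial markers, VWF read 3.29 to 3.43 on those 4 arrays and 8.04 to 8.45 on control arrays of the same days, and TEK 5.36 to 5.96 and 5.93 to 6.90. PECAM1, TIE1 and CDH5, the last near the quartile, were not called on either day. PLXNC1, the receptor of SEMA7A, was higher at day 4 (0.96 ± 0.26, adjusted p = 0.0144) and day 5 (0.89 ± 0.26, adjusted p = 0.0194). Its calls were lost without control day 4 replicate 2 or depleted day 4 replicate 2 (0.64 to 0.88, adjusted p 0.0926 to 0.154) at day 4 and without control day 5 replicate 2 or either depleted day 5 array (0.69 to 0.90, adjusted p 0.0726 to 0.145) at day 5, and 1 of its 2 probe sets was called.

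NRP1 and NRP2, the co-receptors, had reached their highest control level at day 3. NRP1 read 3.10 and 2.42 at day 0 and 6.97 and 7.63, 6.64 and 6.91 and 6.38 and 6.22 at days 3, 4 and 5 in control cells. It read 7.37 and 7.46, 5.26 and 4.06 and 4.53 and 4.51 in depleted cells, and 6.41 and 6.45 in rescue cells. Its depleted arrays of day 3 lay among the control arrays, and all later ones below them, with differences of −2.11 ± 0.32, adjusted p = 0.000297 at day 4 and −1.78 ± 0.32, adjusted p = 0.000925 at day 5. NRP2 read 5.32 and 5.06, 9.16 and 8.84, 9.01 and 8.03 and 8.15 and 8.24 in control cells, 9.64 and 9.45, 7.39 and 6.77 and 7.25 and 7.11 in depleted cells, and 5.74 and 5.63 in rescue cells. Depleted cells exceeded control cells on both arrays of day 3 without passing the test (0.55 ± 0.27, adjusted p = 0.324), although 8 of the 9 probe sets had a positive difference and 4 were called higher. They were lower at day 4 (−1.44 ± 0.27, adjusted p = 0.0012) and day 5 (−1.02 ± 0.27, adjusted p = 0.0101). The day 4 difference of NRP2 was −0.95 without control day 4 replicate 1, still called, and the day 5 call was lost without control day 5 replicate 2 or depleted day 5 replicate 2 (−0.97 to −0.95, adjusted p 0.0568 to 0.0629). Of its 9 probe sets 5 had a negative difference at each day and 3 were called lower, none higher, and with the mean of all its probe sets both calls were lost.

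**Figure D3:**
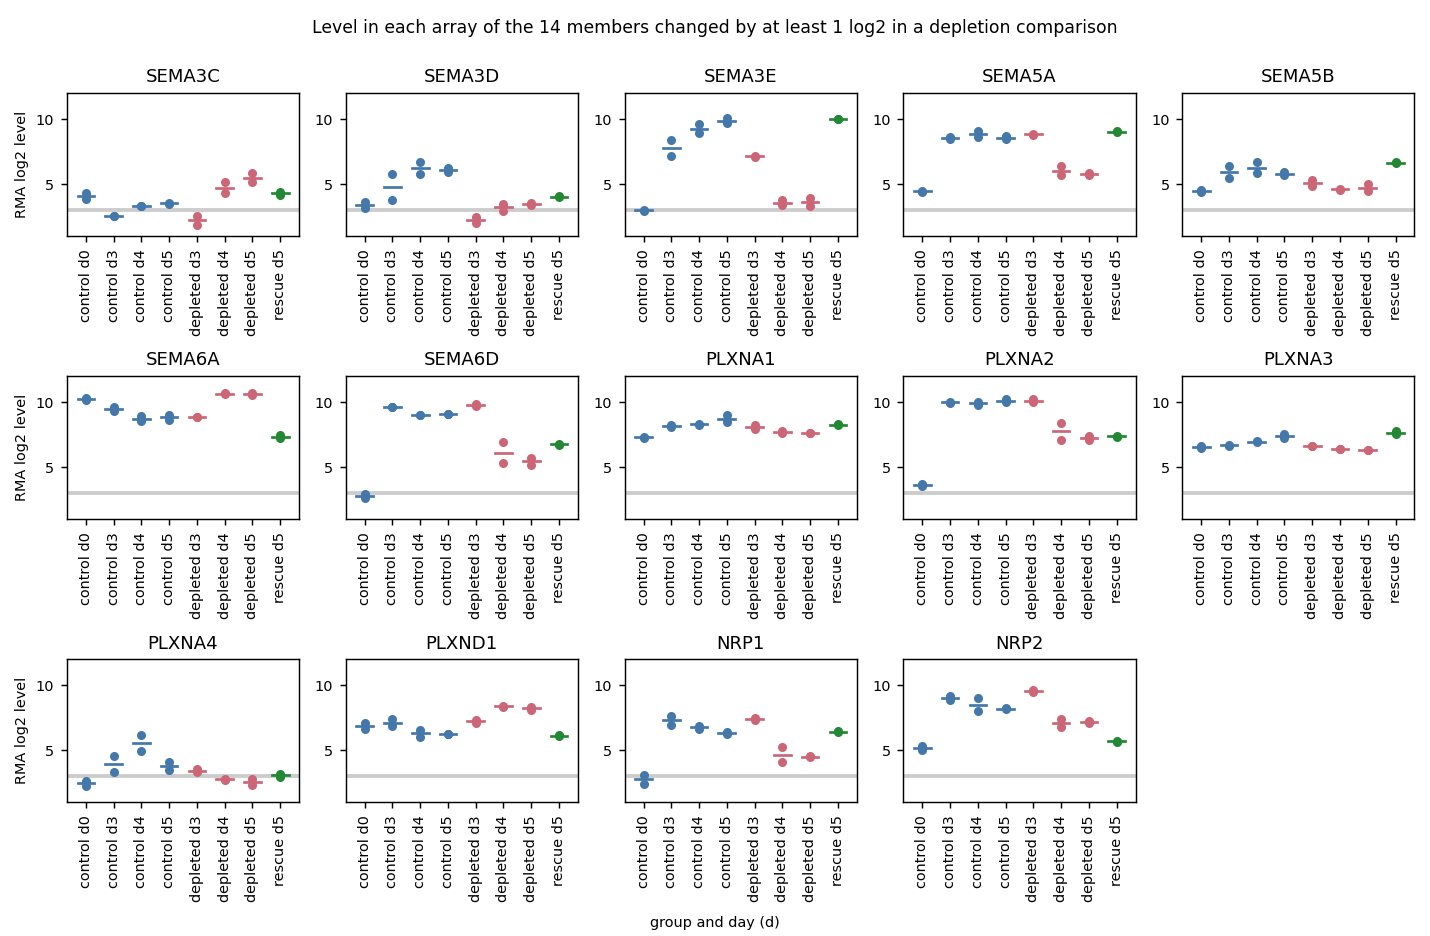
RMA log2 level (vertical axis) in each array of the 14 members called with a difference of at least 1 log2 in a depletion comparison, by group and day (control blue, depleted red, rescue green). Points are arrays, short lines group means of 2 arrays, and the grey band spans the lower quartiles of the 16 arrays, 2.94 to 3.06. SEMA3E falls from 7.18 and 7.10 at day 3 to 3.77 and 3.40 at day 4 in depleted cells, and returns to 10.02 and 9.99 in rescue cells.

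The change between days 3 and 4 was tested as the difference between the depletion effects of the 2 days. The effect became more negative for 7 members (6.95% of all genes) and more positive for 3 (8.35%). SEMA3E moved most (−5.06 ± 0.48, adjusted p = 3.47e-05), followed by SEMA5A (−3.11 ± 0.28, adjusted p = 2.86e-05), SEMA6D (−3.02 ± 0.51, adjusted p = 0.00162), PLXNA2 (−2.25 ± 0.42, adjusted p = 0.00311), PLXNA4 (−2.25 ± 0.57, adjusted p = 0.0173), NRP1 (−2.23 ± 0.46, adjusted p = 0.00547) and NRP2 (−1.98 ± 0.38, adjusted p = 0.00335). SEMA6A (2.49 ± 0.23, adjusted p = 3.44e-05), PLXND1 (2.00 ± 0.31, adjusted p = 0.000925) and SEMA3C (1.75 ± 0.41, adjusted p = 0.0119) moved up. SEMA3D, lower on all days, had −0.42 ± 0.68, adjusted p = 0.771. The call of PLXNA4 was lost without control day 3 replicate 1, control day 4 replicate 2, depleted day 3 replicate 2 or depleted day 4 replicate 2 (−2.22 to −1.62, adjusted p 0.0576 to 0.0664) and that of SEMA3C without depleted day 3 replicate 1 or depleted day 4 replicate 2 (1.34 to 1.39, adjusted p 0.0549 to 0.057).

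Between days 4 and 5 the depletion effect was called different for no member in limma, and in all genes for 0.0221% in the positive and 0.0717% in the negative direction. At an unadjusted p under 0.05 there were 4, namely SEMA3A (−0.54 ± 0.23), PLXNA1 (−0.53 ± 0.22), PLXNA3 (−0.49 ± 0.19) and PLXNA4 (1.56 ± 0.57). The share of all genes at that threshold is not given, so this count has no background.

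Within depleted cells, 17 members were called between days 3 and 5. In that interval 10 members fell (11.4% of all genes) and 7 rose (11.7%). SEMA6D (−4.34 ± 0.36), SEMA3E (−3.53 ± 0.34), SEMA5A (−3.09 ± 0.20), PLXNA2 (−2.89 ± 0.30), NRP1 (−2.89 ± 0.32), NRP2 (−2.37 ± 0.27) and SEMA3F (−1.42 ± 0.22) fell the most. SEMA3C (3.27 ± 0.29), SEMA6A (1.79 ± 0.16), SEMA3A (1.30 ± 0.16) and PLXND1 (1.01 ± 0.22) rose by at least 1 log2. The depleted day 5 arrays enter this comparison and that with control.

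The depleted cells of day 5 also differed from undifferentiated cells. Against control day 0, 7 members were higher (8.8% of all genes) and 4 lower (9.71%). PLXNA2 (3.62 ± 0.30, adjusted p = 5.43e-06), SEMA6D (2.65 ± 0.36, adjusted p = 0.000253), NRP2 (1.99 ± 0.27, adjusted p = 0.00023), NRP1 (1.77 ± 0.32, adjusted p = 0.00218), SEMA3C (1.40 ± 0.29, adjusted p = 0.00478), PLXND1 (1.37 ± 0.22, adjusted p = 0.000817) and SEMA5A (1.31 ± 0.20, adjusted p = 0.00056) were higher. SEMA4D (−1.06 ± 0.16), SEMA4B (−0.94 ± 0.16), PLXNB1 (−0.54 ± 0.17) and SEMA3A (−0.53 ± 0.16) were lower. SEMA3E (0.62 ± 0.34, adjusted p = 0.252) and SEMA3D (0.07 ± 0.48, adjusted p = 0.95) did not pass. With the mean of all probe sets, the calls of SEMA6D (0.61, adjusted p = 0.094), SEMA4D (−0.29, adjusted p = 0.0784) and PLXNB1 (−0.33, adjusted p = 0.188) were lost. Calls were also lost for SEMA3C without depleted day 5 replicate 2 (1.05, adjusted p = 0.0624), for SEMA3A without either control day 0 array, either depleted day 5 array or either rescue day 5 array (−0.60 to −0.46, adjusted p 0.0575 to 0.172) and for PLXNB1 without control day 0 replicate 2, either depleted day 4 array, either depleted day 5 array or either rescue day 5 array (−0.63 to −0.38, adjusted p 0.0543 to 0.226).

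In rescue cells some members lay beside control cells, some beside depleted cells and a few below both. Against depleted cells of day 5, 11 members were higher in rescue cells (21.9% of all genes) and 7 lower (17.6%). Against control cells of day 5, 1 was higher (13.8%) and 9 lower (9.57%), or 6 in all without rescue replicate 1. The 2 comparisons share the rescue arrays. SEMA3E (6.39 ± 0.34, adjusted p = 3.99e-08), SEMA5A (3.30 ± 0.20, adjusted p = 9.45e-08), SEMA5B (1.92 ± 0.32, adjusted p = 0.000318), NRP1 (1.91 ± 0.32, adjusted p = 0.000408), PLXNA3 (1.34 ± 0.13, adjusted p = 4.67e-06), SEMA4F (1.31 ± 0.21, adjusted p = 0.000264) and SEMA4C (0.70 ± 0.15, adjusted p = 0.00219) rose over depleted cells. Their differences from control cells were 0.12 ± 0.34, adjusted p = 0.842 for SEMA3E, 0.47 ± 0.20, adjusted p = 0.109 for SEMA5A, 0.84 ± 0.32, adjusted p = 0.0745 for SEMA5B, 0.12 ± 0.32, adjusted p = 0.834 for NRP1, 0.27 ± 0.13, adjusted p = 0.169 for PLXNA3, 0.44 ± 0.21, adjusted p = 0.168 for SEMA4F and −0.11 ± 0.15, adjusted p = 0.661 for SEMA4C. PLXND1 fell from its raised level (−2.12 ± 0.22, adjusted p = 6.83e-06) to a difference of −0.14 ± 0.22, adjusted p = 0.721 from control. SEMA3C fell too (−1.19 ± 0.29, adjusted p = 0.00509), with 0.74 ± 0.29, adjusted p = 0.0861 from control, and its call against depleted cells was lost without depleted day 5 replicate 2 (−0.85, adjusted p = 0.0677). With only the groups compared in the fit, SEMA5B, SEMA3C, SEMA4F and SEMA5A were called above control (adjusted p = 0.00803, 0.0101, 0.0353 and 0.0412). SEMA5B and SEMA5A were also called above control in some fits with an array left out.

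SEMA6D and PLXNA1 rose in rescue cells, by 1.31 ± 0.36, adjusted p = 0.0105 and 0.64 ± 0.16, adjusted p = 0.00506, and stayed below control cells, with differences of −2.30 ± 0.36, adjusted p = 0.000591 and −0.48 ± 0.16, adjusted p = 0.0408. PLXNA2 was not called against depleted cells (0.15 ± 0.30, adjusted p = 0.728) and was lower than in control cells (−2.73 ± 0.30, adjusted p = 4.47e-05). SEMA3D had 0.58 ± 0.48, adjusted p = 0.379 against depleted and −2.06 ± 0.48, adjusted p = 0.00836 against control cells. NRP2 was lower in rescue cells than in either, with −1.49 ± 0.27, adjusted p = 0.000573 against depleted and −2.51 ± 0.27, adjusted p = 3.5e-05 against control cells, whereas NRP1 was called against depleted cells in the other direction. SEMA6A was likewise below depleted (−3.31 ± 0.16, adjusted p = 2.66e-08) and control cells (−1.48 ± 0.16, adjusted p = 4.39e-05). So was SEMA3A, which was not called between depleted and control cells at day 5, at 7.30 and 7.31 beside 8.63 and 8.52 in depleted and 8.90 and 8.84 in control cells (−1.27 ± 0.16, adjusted p = 4.05e-05 and −1.57 ± 0.16, adjusted p = 3.01e-05). PLXNB2, the receptor of SEMA4C, was the member above both, at 8.15 and 8.17 beside 7.36 and 7.24 and 7.52 and 7.66 (0.86 ± 0.13, adjusted p = 0.000151 and 0.57 ± 0.13, adjusted p = 0.00685). The SEMA6D call against depleted cells was lost without depleted day 5 replicate 2 or rescue day 5 replicate 2 (1.05 to 1.28, adjusted p 0.055 to 0.0916) and with the mean of all its probe sets (0.43, adjusted p = 0.169). The call of PLXNA1 against control cells was also lost with that mean (−0.22, adjusted p = 0.273). Calls against control were lost for PLXNA1 without either control day 4 array, control day 5 replicate 2, either depleted day 4 array, either depleted day 5 array or either rescue day 5 array (−0.52 to −0.23, adjusted p 0.0513 to 0.358) (and −0.73, still called, without control day 5 replicate 1), for SEMA3D without control day 5 replicate 1 or rescue day 5 replicate 1 (−2.00 to −1.91, adjusted p 0.0523 to 0.0575) and for PLXNB2 without rescue day 5 replicate 2 (0.56, adjusted p = 0.0504). With the rescue arrays counted as 1 sample, 14 members were called against depleted cells and 6 against control cells. SEMA6D, SEMA3F, SEMA7A and PLXNC1 lost their calls against depleted cells, and PLXNA1, SEMA3D, SEMA4A and SEMA7A theirs against control. Of all genes called between rescue and control, 59.0% were higher, and 46.6% after cyclic loess scaling, which left the members' 1 and 9 as they were.

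**Figure D4:**
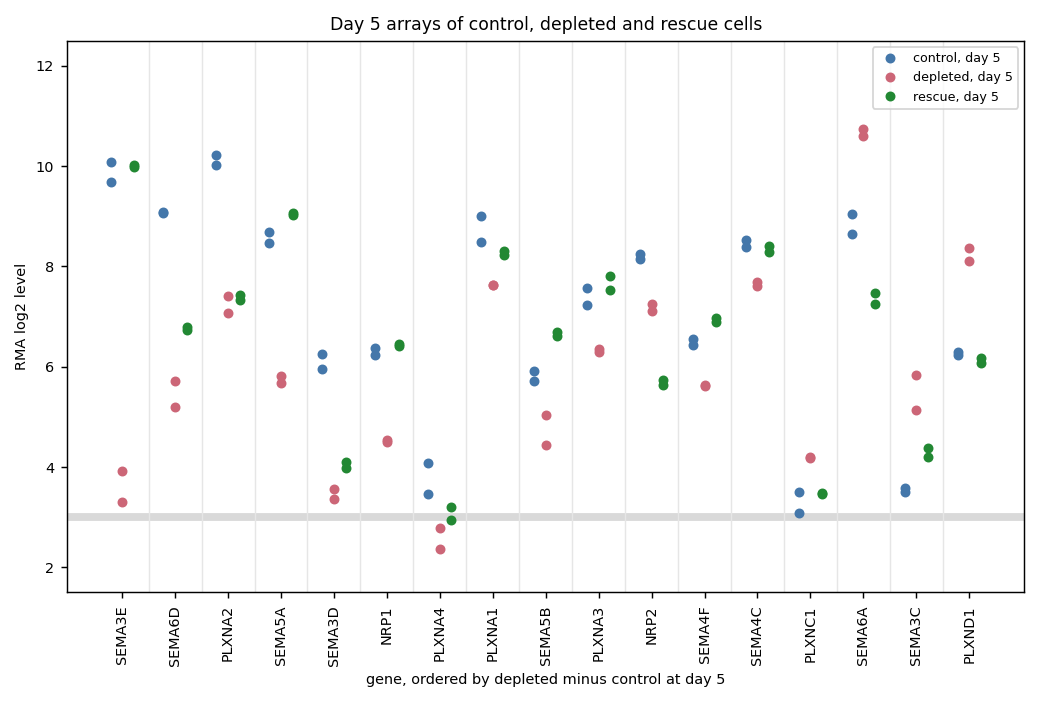
RMA log2 level (vertical axis) on each day 5 array of control, depleted and rescue cells for the 17 members called between depleted and control cells at day 5, ordered by that difference, with the grey band of lower quartiles at 2.94 to 3.06. Rescue points of SEMA3E and NRP1 lie beside control, those of SEMA5A slightly above it, those of PLXNA2 beside depleted cells, and those of NRP2 and SEMA6A below both.

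The pairs of ligand and receptor named so far were chosen with these values known, and 17 of 31 members were called at day 5. SEMA3E (−6.26 ± 0.34) and its receptor PLXND1 (1.98 ± 0.22) were called in opposite directions. So were SEMA6A (1.82 ± 0.16) and its receptors PLXNA2 (−2.89 ± 0.30) and PLXNA4 (−1.21 ± 0.40). SEMA6D (−3.62 ± 0.36) and PLXNA1 (−1.12 ± 0.16) were both lower. SEMA3A (−0.29 ± 0.16) and SEMA3F (−0.54 ± 0.22) were not called while NRP1 (−1.78 ± 0.32) and NRP2 (−1.02 ± 0.27) were lower. SEMA4D (−0.23 ± 0.16) and PLXNB1 (0.32 ± 0.17), SEMA7A (−0.20 ± 0.15) and PLXNC1 (0.89 ± 0.26) held 1 called gene, PLXNC1. SEMA4C (−0.82 ± 0.15) was lower and PLXNB2 (−0.29 ± 0.13) was not called.

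Of 44 listed genes that carry the signal inside the cell or assist the receptors, 41 were measured and GIPC1, RHOD and PAK1 were not analysed here. At day 3, 1 was lower (1.96% of all genes), MET, the hepatocyte growth factor receptor that associates with class B plexins (−1.09 ± 0.24, adjusted p = 0.0237). MET missed the threshold without control day 3 replicate 2 or depleted day 3 replicate 1 (−0.98 and −0.79, adjusted p = 0.144 and 0.217), and with the mean of all probe sets of MET (−0.34, adjusted p = 0.119). At day 4, 11 of 41 were higher and 5 lower, beside 14.8% and 13.3% of all genes, and at day 5, 12 and 5, beside 16.5% and 16%. CHL1, an adhesion molecule that binds neuropilins, was lower at day 4 (−3.23 ± 0.45, adjusted p = 0.000142), and RND3, a small GTPase of the Rnd group that binds plexins, was higher (2.69 ± 0.28, adjusted p = 1.6e-05). MICAL2, of the family of oxidases that act on actin downstream of plexins, was higher at day 4 (2.60 ± 0.29, adjusted p = 2.45e-05), and MET, after its lower level at day 3, was higher at day 4 and at day 5 (2.58 ± 0.24, adjusted p = 4.55e-06 at day 5). With the mean of all probe sets the day 4 differences were −2.06 for CHL1, 2.79 for RND3, 1.19 for MICAL2 and 0.43 for MET. That of MET at day 5 was 0.68, and all of these were called. In rescue cells the differences from depleted cells were 2.78 ± 0.45 for CHL1, −2.99 ± 0.28 for RND3, −1.66 ± 0.29 for MICAL2 and −2.61 ± 0.24 for MET, all called. With the mean of all probe sets they were 1.61, −3.18, −0.88 and −0.78, all called. The median over the 41 genes was 0.06 at day 4 and 0.07 at day 5.

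Called in none of the 12 comparisons were 5 members, a count without background, since the share of all genes called in none is not given here. Group means spanned 0.33 for SEMA3B, 0.22 for SEMA3G, 0.30 for SEMA6B, 0.32 for SEMA6C and 0.32 for PLXNB3. With the mean of its probe sets SEMA6C was called in 7 comparisons, among them depleted against control cells at day 4 (−0.61, adjusted p = 0.00211) and day 5 (−0.74, adjusted p = 0.000449). Group means were above the lower quartile in all 8 groups for 25 members and below it in some for 6, and no member was below it in all.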

How the data were processed

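RNA of 16 H1 cultures was hybridised to Affymetrix PrimeView arrays, 1 array per sample. The authors deposited log2 values after RMA (background correction, quantile normalisation and median polish) in Partek Genomics Suite, version not given in the sources used here. All 16 array columns were mapped to a sample by the labels. Of 49395 probe sets, 44994 named 1 gene, 1832 several and 2569 none, and only the first kind was used. The symbols came from the GEO platform annotation, 44967 probe sets matched a RefSeq gene, and 0 symbols changed. Each of 18132 genes was represented by its probe set of highest average level.

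Groups were compared in limma 3.58.1 (R 4.3.3) with 1 mean per group over all genes and arrays (8 residual and 4.58 prior degrees of freedom), moderated two-sided tests, and Benjamini-Hochberg adjustment over all genes within a comparison. A gene was called at an adjusted p under 0.05. Errors are standard errors of the fit, and each group held 2 arrays, a number that limits the precision. Replicates were separate differentiations of the same lines, so p-values rest on the spread between these, pooled over the groups and moderated. They hold no spread between lines. Control and depleted cells were separate lines, so depletion and other differences between these lines cannot be told apart in that comparison. The rescue arrays correlated with r = 0.9983 over all genes and were also counted as 1 sample.

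Every member is described, with its value on every array where a depletion comparison called it by at least 1 log2 or where the text singles it out. Of the pathway genes, the 4 with the largest called depletion difference are named. The members, the marker lists and the pathway list were chosen with earlier results of these data known. Values under the lower quartile of an array were taken as near background. Promoters came from RefSeq (GRCh38.p14), and that annotation gave the order of genes only. The alternatives tried were averaging the probe sets of a gene, a filter below the 25th percentile, cyclic loess, trended and robust variances, only the groups compared, the replicate number as a block, the rescue arrays as 1 sample, the thresholds of the study's methods (a z-score reaching 3 in size, assumed to be taken over all probe sets, with p not above 0.01) and each array left out. The fitting code was tested on simulated data. Tables and figures used Python 3.11.15, pandas 2.3.3, numpy 2.4.6 and matplotlib 3.10.9.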

Additional observations from a re-analysis of the deposited data

Results flagged for a closer look

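The depletion effect (depleted minus control cells) differed between days 3 and 4 for 10 members when that difference was tested in limma. On the log2 scale, day 4 minus day 3, it was −5.06 for SEMA3E, −3.11 for SEMA5A, −3.02 for SEMA6D, −2.25 for PLXNA2, −2.25 for PLXNA4, −2.23 for NRP1 and −1.98 for NRP2. In the other direction it was 2.49 for SEMA6A, 2.00 for PLXND1 and 1.75 for SEMA3C.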

How the results depend on the processing

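Over 8 alternatives and 16 fits with an array left out, 0 of 143 called differences of members changed direction, 54 stayed called in every setting that tested them and 89 lost the call in at least 1, 41 of these without some array. The filter on low values removed PLXNA4 and SEMA4G, so that 6 of the 143 were not tested under it. Under the thresholds of the study's methods, without adjustment or moderation, fewer members were called: 6 from day 0 to day 3 in control cells, 2 from day 3 to day 5 and 7 from day 0 to day 5, 8 and 5 between depleted and control cells at days 4 and 5, 8 between depleted days 5 and 3, 4 between depleted day 5 and control day 0, and 3 and 5 between rescue cells and depleted or control cells. With only the groups compared in the fit, which leaves fewer arrays to estimate the spread, 3 members were called between control days 3 and 5 and 0 between depleted and control cells at day 3. At day 3 the count was 2 with the mean of all probe sets (NRP2, higher, in addition to SEMA3D) and 2 with trended and robust variances (SEMA6A, lower, in addition). With the rescue arrays as 1 sample, 6 were called against control cells. Leaving out an array gave 14 to 17 members between control days 0 and 3, 4 to 11 between days 3 and 5 and 14 to 16 between days 0 and 5. For depleted against control cells it gave 0 to 3 at day 3 and 13 to 18 at days 4 and 5, for the change of the effect 8 to 11 from day 3 to day 4 and 0 from day 4 to day 5, and 13 to 18 and 8 to 13 for depleted day 5 against depleted day 3 and control day 0. Rescue cells gave 13 to 19 against depleted and 6 to 10 against control cells. The mean of all probe sets ended 22 calls and gained 16. It ended those of NRP2, PLXNA4 and SEMA4F at day 5 and of NRP2 and PLXNA1 at day 4 against control cells, of SEMA4D, SEMA6D and PLXNB1 against day 0 and SEMA4D, PLXNA1 and PLXNB2 against day 3 in depleted cells of day 5, of SEMA6D and SEMA7A in rescue against depleted cells and SEMA7A and PLXNA1 against control cells, and, in control cells, of SEMA3D and PLXNA4 from day 0 to 3, SEMA4D, SEMA6A and PLXNA1 from day 3 to 5 and SEMA4D and PLXND1 from day 0 to 5. Of 133 called differences of members with several probe sets, all probe sets had 1 sign in 104, and 0 had a probe set called the other way. Cyclic loess moved the median of all genes by at most 0.0687. The cause of these changes was not tested beyond what each setting states.

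Over all genes, same-numbered replicates were not shown to be paired. Of 28 correlations of their deviations, 4 were over 0.1 (range −0.068 to 0.253). This does not exclude pairing. In control cells of days 3, 4 and 5, replicate 2 always lay above replicate 1 for SEMA3E, CXCR4 and FOXA2 and below it for TBXT. For SOX17 and HHEX the side changed. Whether arrays of different days came from the same differentiation was not settled. With the replicate block, 17, 11 and 15 members were called between control days 0 and 3, 3 and 5, and 0 and 5, 1, 17 and 17 between depleted and control cells at days 3, 4 and 5, 10 and 0 for the change of the effect, 17 and 11 for depleted day 5 against depleted day 3 and control day 0, and 17 and 9 for rescue cells against depleted and control cells. The block ended the calls of PLXND1 between control days 0 and 5 (−0.61, adjusted p = 0.0516), of PLXNC1 between rescue and depleted cells (−0.71, adjusted p = 0.0547) and of SEMA4A between rescue and control cells (−0.44, adjusted p = 0.0548).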
